A study of Mus musculus with 9 samples.

Results

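A module of 32 mouse genes for cholesterol and fatty acid synthesis was followed through 3 stages of eosinophil development, out of 23471 genes in the RNA files. The members are a list of gene symbols of the pathway, drawn up with earlier results of these data known, and all 32 were found in every library and had enough reads to be tested. They comprise 7 genes of the mevalonate steps, 9 of the steps that turn squalene and its precursors into cholesterol, 5 of the SREBP control system, 3 sterol carriers, 3 genes of fatty acid chain synthesis, 2 desaturases and 3 elongases. Cells came from untreated Balb/c mice at homeostasis, and the marrow of several animals was pooled before sorting, so no value belongs to 1 animal. Granulocyte-macrophage progenitors (GMP) were sorted as lineage-negative cells positive for CD34 and CD16/32 with high c-kit. Eosinophil progenitors (EoP) were lineage-negative and positive for CD34 and CD125 with low c-kit, and mature eosinophils (Eos) were positive for CCR3 and Siglec-F. Each cell type gave 2 RNA-seq libraries and 1 H3K4me3 ChIP-seq peak list, H3K4me3 being a histone mark of active promoters. Nothing given here ties the 2 RNA libraries of a cell type to different animals, so p-values measure only the spread between these libraries, which may be technical.

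Cholesterol is built from acetyl-CoA through mevalonate to isoprenoids, which are joined to squalene, closed to lanosterol and trimmed to cholesterol. Fatty acids start from cytosolic acetyl-CoA, which is carboxylated to malonyl-CoA, polymerised by fatty acid synthase and then elongated or desaturated. The transcription factors encoded by Srebf2 and Srebf1 drive these genes when membrane sterol is low: the escort protein of Scap carries them from the endoplasmic reticulum to the Golgi for cleavage, and the Insig proteins hold them back when sterol is plentiful. When sterol is in excess, cells esterify it, export it and take up less of it. Dividing cells are known to use these pathways for new membrane.

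The RNA libraries held between 5226653 and 12088134 counts, the GMP libraries being the shallowest. Levels are given as CPM, the share of a library's counts that a gene takes, scaled by TMM factors. A call means an adjusted p (Benjamini-Hochberg, over the 14324 genes tested) under 0.05. Summed over 10 eosinophil markers, CPM reached 1240 and 318 in GMP, 241538 and 193038 in EoP and 21304 and 25069 in Eos. Summed over 5 primary granule genes of the GMP stage, they were 42312 and 39543 in GMP, 2460 and 2998 in EoP and 14931 and 5016 in Eos. Of the genes of the sort gates, Il5ra, which encodes CD125, had 436 and 399 CPM in EoP but 619 and 1179 CPM in Eos. Ccr3 had 2272 and 2973 CPM in Eos, against 21.3 and 34.5 CPM in EoP. Kit and Cd34 were highest in GMP, at 309 and 296 CPM and at 130 and 123 CPM. Fcgr3 and Fcgr2b, of the GMP gate, were instead lowest in GMP. Fcgr3 had 27.0 and 34.7 CPM there, 225 and 190 CPM in EoP and 412 and 593 CPM in Eos. Siglec5, of the Eos gate, had 282 and 262 CPM in EoP and 308 and 415 CPM in Eos. Neutrophil markers (12 genes) were also abundant in Eos, at 41731 and 48245 CPM in sum, against 628 and 276.9 CPM in EoP. Retnlg alone made up 20590 and 35159 CPM of the Eos sums. The next largest, S100a9, differed the other way between the Eos libraries, at 8732 and 4392 CPM. Mast cell and basophil markers (7 genes) summed to 929 and 3863 CPM in EoP, against 1084 and 1089 CPM in GMP. In these bulk libraries fewer cells of a type and less RNA per cell cannot be told apart.

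Promoters of 25 of the 32 members were found in the RefSeq promoter table (GRCm38.p6, the assembly of the authors' mm10 coordinates), which runs from 250 bases before to 50 bases after each start and held 34 promoters for them. Searches on both strands used 3 motifs: TCACNCCAC, a form of the sterol regulatory element to which the SREBP proteins bind, CCAAT, the site of the factor NF-Y, and GGGCGG, the core of the Sp1 site. CCAAT was in 64.7% of the 34 member promoters and in 37.4% of all 32851 promoters of the table. GGGCGG was in 73.5% of member promoters and in 35.7% of all. TCACNCCAC was in the promoter of 1 member, Hmgcs1, and in 1.24% of all promoters. A further form, TCACCTCAG, was chosen after the promoter of Cyp51 had been read, where it begins 88 bases before the start; it was in 0.381% of all promoters and in no other member. A match says only that the letters are present, and no match that these letters are not in this window.

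Windows of 150 bases that end at the base before the start are shown for 6 members whose RNA the results turn on: Hmgcs1 with the 1 match to the sterol element, Cyp51, Lss and Mvd, which rose in EoP, and Fasn and Elovl6, which fell in Eos. They lie at chr13:119690201-119690350 (plus strand, Hmgcs1), chr5:4104698-4104847 (minus strand, Cyp51), chr10:76531455-76531604 (plus strand, Lss), chr8:122443423-122443572 (minus strand, Mvd), chr11:120824548-120824697 (minus strand, Fasn) and chr3:129532236-129532385 (plus strand, Elovl6). Each is written 5′ to 3′ on the strand of its gene, and capitals mark a match to any of the 4 motifs on either strand, so that ATTGG is CCAAT and CCGCCC is GGGCGG read on the other strand.
Hmgcs1: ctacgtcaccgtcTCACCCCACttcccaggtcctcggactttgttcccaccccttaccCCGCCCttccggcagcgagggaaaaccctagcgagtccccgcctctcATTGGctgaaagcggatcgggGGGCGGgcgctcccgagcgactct
Cyp51: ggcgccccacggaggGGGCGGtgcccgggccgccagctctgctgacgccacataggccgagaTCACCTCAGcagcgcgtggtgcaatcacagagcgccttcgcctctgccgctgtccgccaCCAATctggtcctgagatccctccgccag
Lss: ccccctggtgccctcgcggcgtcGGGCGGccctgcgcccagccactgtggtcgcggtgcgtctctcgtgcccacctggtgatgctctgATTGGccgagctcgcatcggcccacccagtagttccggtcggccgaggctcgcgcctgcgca
Mvd: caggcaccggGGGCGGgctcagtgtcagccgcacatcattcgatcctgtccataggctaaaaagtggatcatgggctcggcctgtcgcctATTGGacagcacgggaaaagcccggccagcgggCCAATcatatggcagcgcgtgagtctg
Fasn: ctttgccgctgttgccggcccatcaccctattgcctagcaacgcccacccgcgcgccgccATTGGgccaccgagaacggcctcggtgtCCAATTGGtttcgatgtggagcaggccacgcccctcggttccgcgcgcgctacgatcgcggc
Elovl6: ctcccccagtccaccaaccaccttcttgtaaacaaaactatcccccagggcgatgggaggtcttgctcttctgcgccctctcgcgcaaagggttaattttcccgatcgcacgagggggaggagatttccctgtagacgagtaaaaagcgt
The Fasn window holds CCAAT on both strands where the 2 matches overlap (CCAATTGG). Elovl6 had no match to any of the motifs in this window.

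In EoP, 7 of the 32 members were higher than in GMP and 0 were lower, and 5 of the 7 were sterol synthesis genes: Mvd, Fdps, Sqle, Lss and Cyp51. The other 2 were the sterol carrier gene Stard4 and Acly. Sterol synthesis genes make up a large share of the 32, with 7 of the mevalonate steps and 9 of the later steps. Whether the calls lean to this branch was not tested. Of all genes tested, 9.49% were called higher and 17.1% lower. Both EoP libraries were above both GMP libraries for 21 of the 32 members and below them for 2, against 31% and 39% of all genes tested. The median log2 fold change of the 32 members was 0.46, against −0.07 over all genes, and 28 members had a positive value. This offset depends on scaling: with library size alone the median was −0.01 for the members and −0.53 for all genes, and 16 members were positive. Over all genes, 1359 higher and 2453 lower calls became 602 and 3617 with library size alone, 950 and 2815 with upper quartile factors, and 2363 and 352 with limma on log2(RPKM + 0.5). The 7 calls became 2 without GMP replicate 1, 3 without GMP replicate 2, 3 without EoP replicate 1 and 13 with either Eos library left out. Beside these rises, 2 of 14 proliferation genes rose, with summed levels of 5369 and 5995 CPM in EoP against 3871 and 3616 CPM in GMP. All 10 eosinophil markers rose, as did 1 neutrophil marker and 1 monocyte and macrophage marker. In turn, 5 of 5 primary granule, 6 of 12 neutrophil and 6 of 10 monocyte and macrophage markers fell. Their part was not tested.

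In Eos, 15 members were lower than in EoP and 3 were higher, while 17.7% of all genes tested were called lower and 19.1% higher. The 15 include 9 sterol synthesis genes, the feedback gene Insig1, Stard4, and 4 genes that build or modify fatty acids (Acaca, Fasn, Scd2 and Elovl6). The 3 that rose were Srebf2, the carrier gene Npc1 and the desaturase gene Scd1. Both Eos libraries were above both EoP libraries for 5 of the 32 members and below them for 20, against 35.4% and 35.5% of all genes tested. The median log2 fold change of the members was −0.71, against 0.02 over all genes. Over all genes, 2733 higher and 2540 lower calls became 1440 and 4311 with limma on log2(RPKM + 0.5). The 15 falls became 7 without EoP replicate 1 and 9 without EoP replicate 2, and the 3 rises became 1 in each of those fits. Other genes moved with this step. All 14 proliferation genes fell, with summed levels of 2315 and 1160 CPM in Eos against 5369 and 5995 CPM in EoP. So did 6 of 7 mast cell and basophil markers and 6 of 10 eosinophil markers, while 3 eosinophil markers rose. All 12 neutrophil, 8 of 10 monocyte and macrophage, 4 of 5 primary granule and 5 of 7 erythroid markers rose. The monocyte and macrophage sum was nonetheless lower, at 747 and 609 CPM in Eos against 1108 and 1086 CPM in EoP. In that list 1 marker was called lower. The part of any of these other genes in the members' falls was not tested. Within Eos, replicate 2 was below replicate 1 for 13 of the 15 members that fell, and for 86.2% of the 2540 genes of the whole table that fell.

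In Eos against GMP, 9 members were higher (Hmgcs1, Mvd, Cyp51, Srebf2, Scap, Stard4, Npc1, Acly and Scd1) and 6 were lower (Acat2, Dhcr7, Insig1, Acaca, Fasn and Elovl6). Over all genes tested 22.7% were higher and 31.8% lower. Both Eos libraries were above both GMP libraries for 12 of the 32 members and below them for 9, against 33.3% and 49.7% of all genes tested. The median log2 fold change was 0.04 for the members and −0.39 over all genes, and with library size alone it was −0.53 and −0.97, with 2019 genes higher and 6776 lower in place of 3253 and 4557. The higher members then numbered 3, and without GMP replicate 1 they numbered 4. The lower members numbered 3 without GMP replicate 2 and 11 without Eos replicate 1. The comparisons share libraries, the EoP libraries entering both steps, so their calls are not independent. Beside the changes in Eos against GMP, 12 of 14 proliferation genes, 5 of 5 primary granule genes and 6 of 7 mast cell and basophil markers fell, and 10 of 10 eosinophil and 11 of 12 neutrophil markers rose. Their part was not tested.

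**Figure D1:**
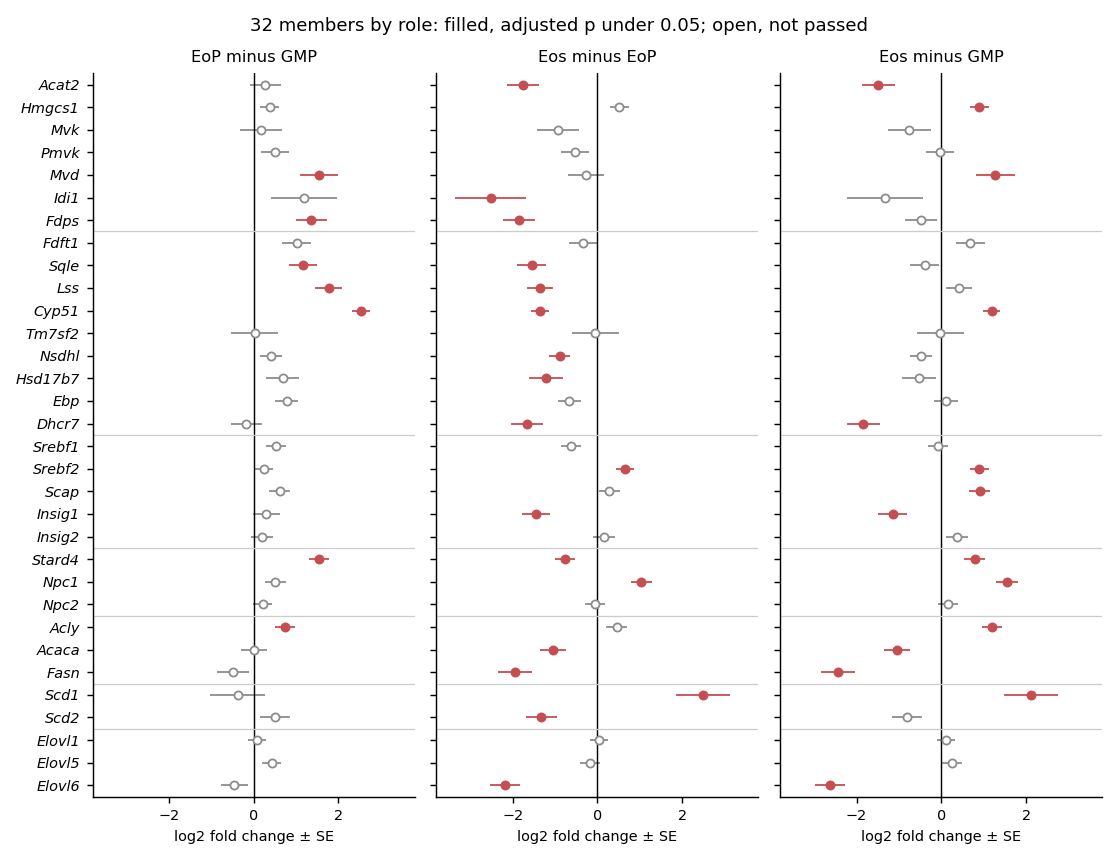
Log2 fold change with its standard error (x axis) for each of the 32 members (y axis, grouped by role, roles parted by grey lines) in the 3 comparisons, from edgeR fits of 2 libraries per cell type. Filled red points are the 7, 18 and 15 members called at an adjusted p under 0.05, and open grey points did not pass.

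Summed over the 9 genes that lead from squalene synthesis to cholesterol, levels were 186 and 179 CPM in GMP, 370 and 396 CPM in EoP and 197 and 142 CPM in Eos. Both EoP sums were above the other 4. For the 7 mevalonate genes the sums were 70.8 and 77.6 CPM in GMP, 135 and 108 CPM in EoP and 92.4 and 78.6 CPM in Eos. These sums follow the more abundant members and were not tested.

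Cyp51, at chr5:4080674-4104697 on the minus strand, encodes lanosterol demethylase, the first enzyme after the sterol rings are closed. It had 20.7 and 21.5 CPM in GMP, 121 and 124 CPM in EoP and 46.6 and 49.1 CPM in Eos, the 2 libraries of each cell type lying close together. It was 5.81-fold higher in EoP than in GMP (log2 fold change 2.54, SE 0.22; quasi-likelihood test of edgeR, adjusted p = 0.000103). It fell by 1.36 on the log2 scale in Eos against EoP (SE 0.21, edgeR adjusted p = 0.00104) and was 2.27-fold higher in Eos than in GMP (1.18, SE 0.21, adjusted p = 0.00161). All 3 calls held in every alternative fit.

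Lss, for the synthase that closes the rings to lanosterol, had 8.23 and 10.9 CPM in GMP, 34.3 and 30.8 CPM in EoP and 14.8 and 10.6 CPM in Eos. The EoP libraries stood apart, and the GMP and Eos ranges overlapped. It was 3.41-fold higher in EoP than in GMP (log2 fold change 1.77, SE 0.31, edgeR adjusted p = 0.0043), a call lost without GMP replicate 1 (1.59, adjusted p = 0.0598). In Eos against EoP it fell by 1.35 (SE 0.30, edgeR adjusted p = 0.00675), lost without EoP replicate 1 (−1.29, adjusted p = 0.0542). The difference between Eos and GMP did not pass (0.42, SE 0.31, adjusted p = 0.268).

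Sqle, which encodes squalene epoxidase, a rate-limiting step of this branch, had 30.6 and 28.0 CPM in GMP, 58.8 and 72.3 CPM in EoP and 30.6 and 13.9 CPM in Eos. It was 2.24-fold higher in EoP than in GMP (log2 fold change 1.16, SE 0.34, edgeR adjusted p = 0.029), but leaving out any single GMP or EoP library put the adjusted p between 0.0742 and 0.156. That call was also lost with upper quartile factors, library size alone, at least 50 counts and limma on log2(RPKM + 0.1) (adjusted p = 0.0622, 0.209, 0.0744 and 0.055). In Eos it fell by 1.55 (SE 0.34, edgeR adjusted p = 0.00616), a call held in every alternative, with values of −2.25 without Eos replicate 1 and −1.10 without Eos replicate 2. Fdps, for farnesyl diphosphate synthase, the last step before squalene, had 12.7 and 14.9 CPM in GMP, 40.7 and 30.3 CPM in EoP and 13.4 and 6.2 CPM in Eos. As with Sqle, both EoP libraries were above the other 4. It was 2.57-fold higher in EoP than in GMP (1.36, SE 0.37, edgeR adjusted p = 0.0226), lost on leaving out either GMP library or EoP replicate 1 (adjusted p = 0.171, 0.0865 and 0.13), and with library size alone or at least 50 counts (0.138 and 0.0555). It fell by 1.85 in Eos against EoP (SE 0.37, edgeR adjusted p = 0.00435), with −2.53 without Eos replicate 1 and −1.41 without Eos replicate 2, both called.

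Mvd encodes the mevalonate diphosphate decarboxylase that makes the isoprenoid unit, and it had 3.39 and 5.66 CPM in GMP, 17.3 and 9.0 CPM in EoP and 10.04 and 11.7 CPM in Eos. The EoP libraries differed most here, and the Eos values fell between them. It was 2.91-fold higher in EoP than in GMP (log2 fold change 1.54, SE 0.46, edgeR adjusted p = 0.0315) and 2.41-fold higher in Eos than in GMP (1.27, SE 0.46, adjusted p = 0.0378). On leaving out either GMP library or EoP replicate 1 the EoP call was lost (adjusted p = 0.221, 0.0648 and 0.211), and without GMP replicate 1 or Eos replicate 2 the Eos call was lost (0.213 and 0.076). Upper quartile factors and library size alone ended both calls (EoP 0.0545 and 0.115, Eos 0.0751 and 0.22), at least 50 counts the first (0.0683) and both limma fits the second (0.072 and 0.067). The counts were few (28 to 147 per library), and in Eos replicate 2 all 100 of them were assigned to the noncoding transcript NR_028354.

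Stard4, a small carrier that moves cholesterol between membranes inside the cell, was also highest in EoP, at 22.4 and 18.3 CPM in GMP, 66.9 and 52.1 CPM in EoP and 36.2 and 34.1 CPM in Eos. No libraries of different cell types overlapped. It was 2.92-fold higher in EoP than in GMP (log2 fold change 1.54, SE 0.24, edgeR adjusted p = 0.00271), in all alternatives. The fall in Eos against EoP (−0.76, SE 0.24, edgeR adjusted p = 0.03) was lost on leaving out GMP replicate 2, either EoP library or Eos replicate 2 (adjusted p = 0.0521, 0.241, 0.0677 and 0.0546), and with DESeq2 size factors or its Wald test (0.0546 and 0.0587). The excess in Eos over GMP (0.79, SE 0.24, edgeR adjusted p = 0.0202) was lost without GMP replicate 1 or 2 (adjusted p = 0.0589 and 0.084), with upper quartile factors (0.0665), with library size alone (0.21, adjusted p = 0.473) and with both limma fits (0.0912 and 0.0875).

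A second set of sterol genes was called only in comparisons with Eos. Acat2, the cytosolic thiolase that makes acetoacetyl-CoA, had 12.7 and 13.3 CPM in GMP, 15.8 and 15.6 CPM in EoP and 5.92 and 3.27 CPM in Eos. Eos was thus below both progenitors: it fell by 1.76 against EoP (SE 0.38, edgeR adjusted p = 0.00616) and by 1.49 against GMP (SE 0.39, adjusted p = 0.00988), the GMP comparison being lost without GMP replicate 2 (−1.30, adjusted p = 0.0692). Dhcr7, the reductase of the last step to cholesterol, had 34.4 and 36.5 CPM in GMP, 27.8 and 35.1 CPM in EoP and 14.1 and 5.61 CPM in Eos. It fell by 1.67 against EoP (SE 0.38, edgeR adjusted p = 0.00766) and by 1.84 against GMP (SE 0.38, adjusted p = 0.00366), in all alternatives. The size of the Dhcr7 fall against EoP depended on the Eos library, at −2.50 without Eos replicate 1 and −1.17 without Eos replicate 2, and the fall against GMP was −2.64 without Eos replicate 1.

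Nsdhl and Hsd17b7 encode the dehydrogenase and the reductase of sterol C4 demethylation. Nsdhl had 46.7 and 42.9 CPM in GMP, 60.1 and 59.1 CPM in EoP and 38.9 and 25.4 CPM in Eos, and fell by 0.89 in Eos against EoP (SE 0.25, edgeR adjusted p = 0.0199). Hsd17b7 had 19.0 and 11.0 CPM in GMP, 20.05 and 28.4 CPM in EoP and 13.7 and 7.25 CPM in Eos, and fell by 1.21 (SE 0.40, edgeR adjusted p = 0.0382). Both falls were lost on leaving out either EoP library or Eos replicate 2 (Nsdhl adjusted p = 0.0961, 0.0932 and 0.061; Hsd17b7 0.0611, 0.225 and 0.131). That of Hsd17b7 was also lost with library size alone and with only the groups compared (adjusted p = 0.0546 and 0.0517). Idi1, an isomerase of the isoprenoid unit, was counted only 2 to 25 times per library and had 1.21 and 0.745 CPM in GMP, 2.95 and 1.63 CPM in EoP and 0.201 and 0.585 CPM in Eos. Its fall in Eos against EoP (−2.52, SE 0.84, edgeR adjusted p = 0.0396) was lost with any of the 6 libraries left out (adjusted p from 0.0629 to 0.225; −3.41 without Eos replicate 2), with the DESeq2 Wald test (0.092) and with the replicate block (0.0993).

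Hmgcs1, for the synthase that makes HMG-CoA, was highest in Eos. It had 25.5 and 22.9 CPM in GMP, 33.7 and 29.5 CPM in EoP and 45.3 and 44.9 CPM in Eos, and no libraries of different cell types overlapped. Neither single step passed (edgeR log2 fold change 0.38, SE 0.23, adjusted p = 0.246 for EoP against GMP, and 0.51, SE 0.22, adjusted p = 0.094 for Eos against EoP), but Eos was 1.86-fold higher than GMP (0.89, SE 0.23, adjusted p = 0.00865). With library size alone that call was lost (adjusted p = 0.256).

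**Figure D2:**
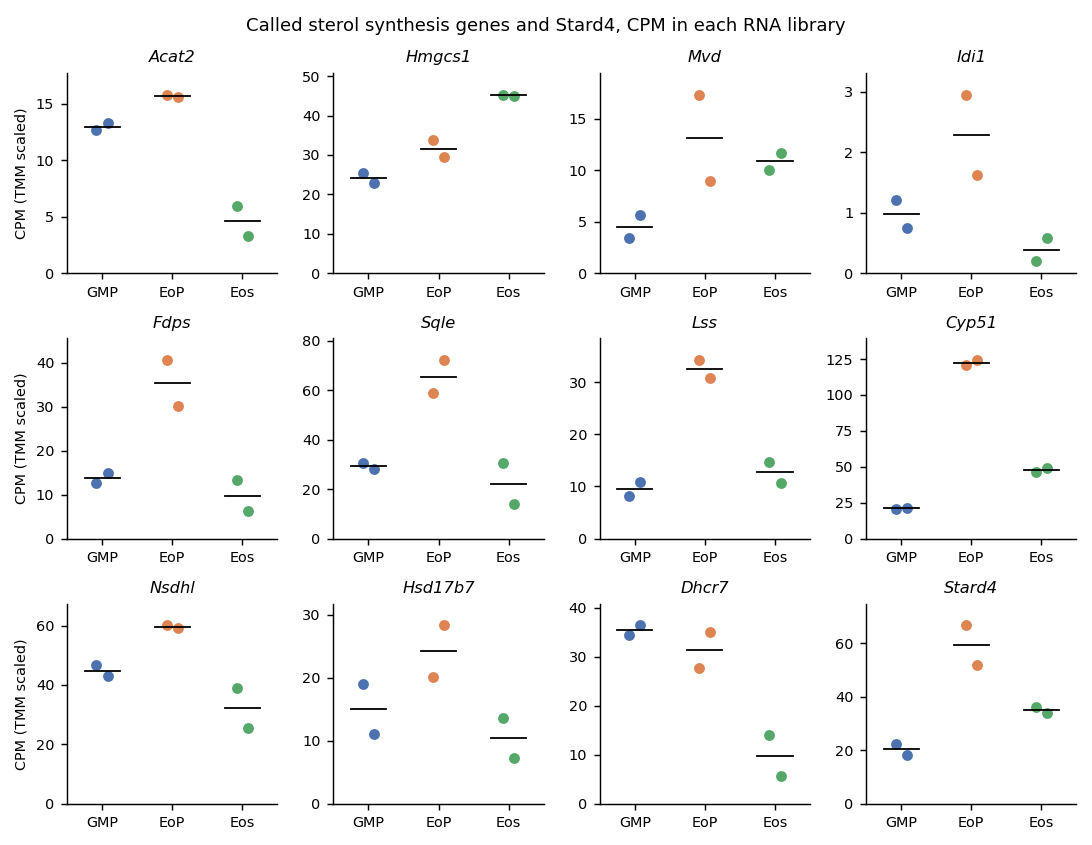
CPM (y axis, linear from 0, a scale of its own for each gene) of the 11 sterol synthesis genes called in any comparison and of Stard4 in GMP, EoP and Eos, with 1 point per RNA library and a line at the mean of the 2. For Acat2, Idi1, Fdps, Sqle, Lss, Cyp51, Nsdhl, Hsd17b7 and Stard4 both EoP points lie above the other 4. For Acat2, Idi1, Nsdhl and Dhcr7 both Eos points lie below the other 4.

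The other 5 sterol synthesis genes passed in none of the 3 comparisons. Fdft1, squalene synthase, came nearest, at 9.68 and 8.49 CPM in GMP, 18.9 and 17.9 CPM in EoP and 18.1 and 11.1 CPM in Eos (EoP minus GMP 1.01, SE 0.34, edgeR adjusted p = 0.0523). Its gene model overlaps that of Ctsb, a cathepsin gene on the other strand with 148 to 327 CPM, by 774 bases, and no source used here says whether counting used strand. Ebp, a sterol isomerase, had 12.9 and 16.8 CPM in GMP, 26.8 and 24.3 CPM in EoP and 15.9 and 16.3 CPM in Eos, with both EoP libraries above the rest (EoP minus GMP 0.78, SE 0.28, adjusted p = 0.0631; Eos minus EoP −0.67, SE 0.27, adjusted p = 0.0805). Mvk and Pmvk, the kinases of mevalonate, ranged over the libraries between 2.92 and 8.19 CPM and between 9.0 and 16.6 CPM. Tm7sf2, a sterol reductase, ranged between 2.22 and 4.02 CPM, with differences of at most 0.05 on the log2 scale in either direction and standard errors of 0.55 to 0.56.

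Among the 5 genes of the SREBP system none passed in EoP against GMP. Srebf2, which encodes the factor best known for sterol genes, had 60.4 and 60.5 CPM in GMP, 67.9 and 75.8 CPM in EoP and 98.5 and 126 CPM in Eos. It was highest in Eos, 1.86-fold above GMP (log2 fold change 0.89, SE 0.22, edgeR adjusted p = 0.00765; lost without GMP replicate 1, adjusted p = 0.0602) and 1.56-fold above EoP (0.64, SE 0.22, adjusted p = 0.0411). The second call was lost in 5 of the 6 fits with a library left out, on leaving out GMP replicate 1, GMP replicate 2, EoP replicate 1, EoP replicate 2 and then Eos replicate 2 (adjusted p = 0.0822, 0.0801, 0.241, 0.124 and 0.129), and in 7 of the other 11 alternatives. Scap had 96.0 and 98.9 CPM in GMP, 162 and 137 CPM in EoP and 145 and 218 CPM in Eos, and was 1.87-fold higher in Eos than in GMP (0.90, SE 0.24, edgeR adjusted p = 0.0121; lost without GMP replicate 1, adjusted p = 0.0876). With library size alone neither gene was called in Eos against GMP (adjusted p = 0.233 for Srebf2 and 0.241 for Scap).

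Insig1, a retention protein whose gene is itself an SREBP target, had 17.7 and 24.9 CPM in GMP, 29.5 and 23.1 CPM in EoP and 11.8 and 7.25 CPM in Eos. Both Eos libraries were below the other 4, and it fell by 1.45 against EoP (SE 0.34, edgeR adjusted p = 0.00841; lost without EoP replicate 1, adjusted p = 0.0655) and by 1.15 against GMP (SE 0.34, adjusted p = 0.0173; lost without replicate 2 of GMP, of EoP or of Eos, adjusted p = 0.2, 0.0556 and 0.0627, and with only the groups compared, 0.057). Insig2, its paralogue, ranged between 18.5 and 28.4 CPM over the 6 libraries and passed in no comparison. Srebf1, better known for fatty acid genes, also passed in none, at 26.6 and 34.3 CPM in GMP, 40.8 and 46.9 CPM in EoP and 27.5 and 29.7 CPM in Eos, the EoP libraries being the highest (Eos minus EoP −0.62, SE 0.24, edgeR adjusted p = 0.0638).

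Npc1 and Npc2 encode the membrane and the soluble protein that release cholesterol from lysosomes. Npc1 had 45.6 and 46.8 CPM in GMP, 71.9 and 60.2 CPM in EoP and 107 and 163 CPM in Eos, each stage above the one before. It was 2.04-fold higher in Eos than in EoP (log2 fold change 1.03, SE 0.25, edgeR adjusted p = 0.01; lost without EoP replicate 2, 0.93, adjusted p = 0.0827, and with both limma fits, adjusted p = 0.0839 and 0.0888) and 2.92-fold higher than in GMP (1.55, SE 0.25, adjusted p = 0.00103, in all alternatives; 0.94 with library size alone). Its model shares 276 bases with 3110002H16Rik on the other strand, which had 92.5 and 156 CPM in Eos and 18.8 and 19.5 CPM in GMP, so reads of that gene could enter the count. Npc2 ranged between 198 and 286 CPM and passed in no comparison.

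In the fatty acid branch, the genes for chain synthesis parted. Acly, whose product cleaves citrate to cytosolic acetyl-CoA for both branches, had 124 and 116 CPM in GMP, 196 and 207 CPM in EoP and 219 and 331 CPM in Eos. It was 2.29-fold higher in Eos than in GMP (log2 fold change 1.19, SE 0.24, edgeR adjusted p = 0.00337, in all alternatives; 0.59 with library size alone). In EoP it was 1.67-fold higher than in GMP (0.74, SE 0.24, adjusted p = 0.0469), lost without GMP replicate 1 or 2 or EoP replicate 1 or 2 (adjusted p = 0.2, 0.157, 0.128 and 0.11). It was also lost with DESeq2 size factors, upper quartile factors, library size alone, at least 50 counts and the replicate block (adjusted p = 0.063, 0.115, 0.355, 0.101 and 0.0625). Fasn, at chr11:120805958-120824547 on the minus strand, encodes fatty acid synthase and had 196 and 217 CPM in GMP, 131 and 164 CPM in EoP and 56.1 and 20 CPM in Eos. It fell 3.87-fold in Eos against EoP (−1.95, SE 0.40, edgeR adjusted p = 0.00447) and 5.41-fold against GMP (−2.44, SE 0.40, adjusted p = 0.00109), in all alternatives. The 2 Eos libraries differed by more than those of other cell types, and the fall against EoP was −2.90 without Eos replicate 1 and −1.40 without Eos replicate 2. Against GMP it was −3.35 without Eos replicate 1 and −1.85 without Eos replicate 2.

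Acaca, the acetyl-CoA carboxylase that commits carbon to fatty acids, had 32.9 and 24.9 CPM in GMP, 26.8 and 31.4 CPM in EoP and 17.4 and 10.5 CPM in Eos. It fell by 1.06 against EoP (SE 0.31, edgeR adjusted p = 0.0228) and by 1.05 against GMP (SE 0.31, adjusted p = 0.017). The first fall was lost on leaving out either EoP library or Eos replicate 2 (adjusted p = 0.0653, 0.141 and 0.0712). The second was lost on leaving out either GMP library or replicate 2 of EoP or of Eos (adjusted p = 0.134, 0.0602, 0.0651 and 0.0617), with both limma fits (0.052 and 0.0571) and with only the groups compared (0.0597).

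The elongase gene Elovl6, at chr3:129532386-129638493 on the plus strand, extends the products of fatty acid synthase and had 21.4 and 27.9 CPM in GMP, 15.4 and 20.4 CPM in EoP and 4.62 and 3.27 CPM in Eos. It fell 4.52-fold in Eos against EoP (log2 fold change −2.18, SE 0.35, edgeR adjusted p = 0.00138) and 6.2-fold against GMP (−2.63, SE 0.35, adjusted p = 0.000316), in all alternatives, with −1.33 and −1.44 in limma on log2(RPKM + 0.5). Elovl1 and Elovl5, which act on very long saturated and on polyunsaturated chains, ranged between 66.0 and 80.2 CPM and between 238 and 380 CPM, and passed in no comparison. The log2 fold change of Elovl1 lay between 0.04 and 0.11 in the 3 comparisons, with a standard error of 0.21.

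The desaturase genes moved in opposite directions in Eos against EoP. Scd2 had 284 and 215 CPM in GMP, 354 and 358 CPM in EoP and 201 and 82.4 CPM in Eos, and fell by 1.33 (SE 0.36, edgeR adjusted p = 0.0179), with −2.13 without Eos replicate 1 and −0.82 without Eos replicate 2, and lost without EoP replicate 1 or 2 (adjusted p = 0.058 and 0.062). Scd1, counted only 9 to 146 times, had 2.18 and 2.53 CPM in GMP, 1.06 and 2.49 CPM in EoP and 14.7 and 5.73 CPM in Eos. It was 5.62-fold higher in Eos than in EoP (2.49, SE 0.63, adjusted p = 0.0123; 3.28 without EoP replicate 2) and 4.33-fold higher than in GMP (2.11, SE 0.63, adjusted p = 0.0176). The first call was lost without replicate 1 of EoP (2.02, adjusted p = 0.0751) or of Eos (1.64, adjusted p = 0.089), the second without GMP replicate 1, GMP replicate 2 or Eos replicate 1 (adjusted p = 0.103, 0.0643 and 0.151; 1.29 without Eos replicate 1) or with library size alone (0.074). Scd1 and Scd2 are close paralogues, and how the counting split reads between them is not given. The difference between the 2 genes was not tested.

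**Figure D3:**
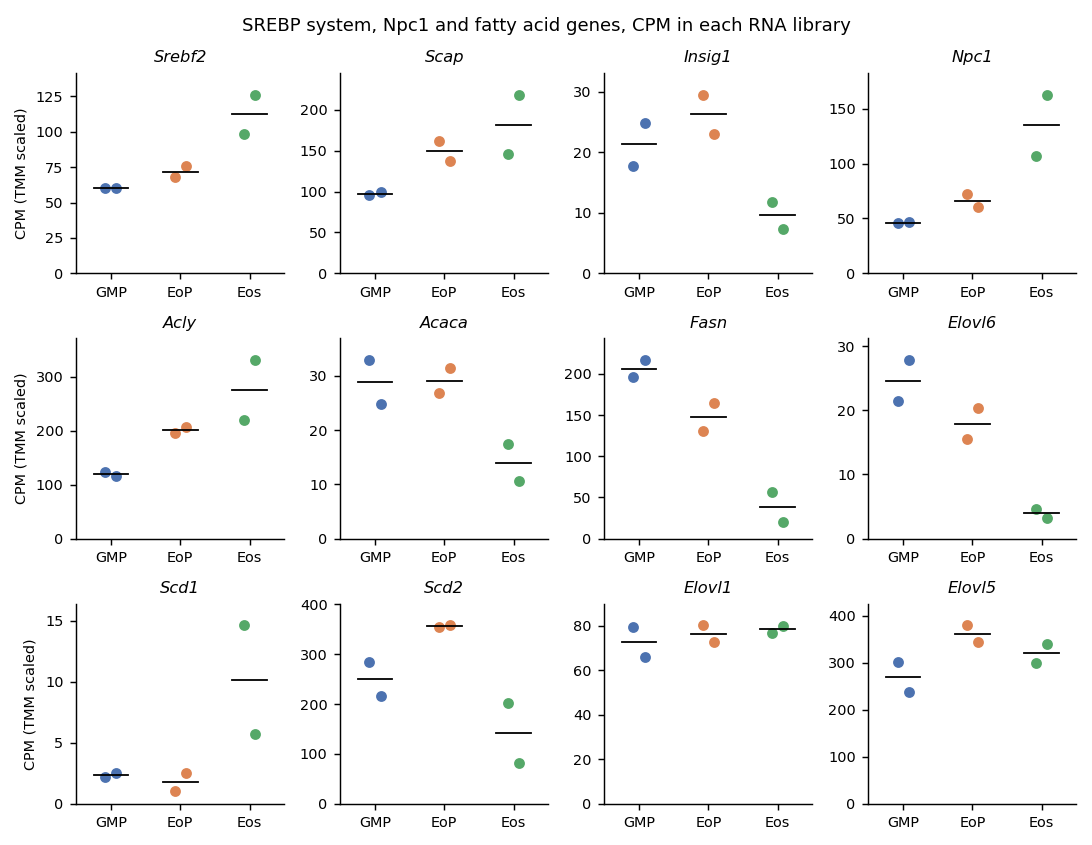
CPM (y axis, linear from 0, a scale of its own for each gene) of 4 genes of sterol control and transport and of 8 fatty acid genes in GMP, EoP and Eos, with 1 point per RNA library and a line at the mean of the 2. Both Eos points of Fasn, Elovl6, Acaca, Scd2 and Insig1 lie below the other 4, and those of Npc1, Srebf2, Acly and Scd1 lie above them.

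Per length, on the authors' RPKM scale, the order of the members changed in the middle more than at the top. Elovl5 (33.0 ± 6.38, 54.5 ± 0.501 and 33.9 ± 1.70 RPKM in GMP, EoP and Eos; SD, n = 2 each) and Npc2 ranked first and second in all 3 cell types. Cyp51 ranked number 22 of 32 in GMP at 1.64 RPKM in both libraries, number 8 in EoP at 11.1 and 12.5 RPKM and number 13 in Eos at 3.48 and 3.01 RPKM. Fasn ranked number 7 in GMP, at 6.81 and 7.28 RPKM, number 13 in EoP and number 22 in Eos, at 1.84 and 0.537 RPKM. Ranks of neighbours that differ by less than their spread, such as Fdps and Cyp51 in EoP (11.8 RPKM each on average), carry no order. Transcript shares within a gene varied between libraries of 1 cell type, as for Acly, where NM_001199296 took 0% and 56.2% of counts in GMP, so only gene sums are compared.

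Genes of the same pathways outside the 32 were listed too, 26 for sterols, of which 25 were tested, and 36 for fatty acids, of which 30 were tested. Of the 25 sterol genes, 3 rose and 5 fell in EoP against GMP, 9 rose and 1 fell in Eos against EoP, and 11 rose and 4 fell in Eos against GMP. Of the 30 fatty acid genes the numbers were 6 and 5, 3 and 7, and 7 and 9. Over all genes tested, 9.49% rose and 17.1% fell in EoP against GMP, and 19.1% and 17.7% in Eos against EoP. In Eos against GMP 22.7% rose and 31.8% fell. Whether either list departs from these shares was not tested. The median log2 fold changes in Eos against EoP were 0.37 for the sterol list and −0.01 for the fatty acid list, against 0.02 over all genes.

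Sc4mol (Msmo1), the C4 methyl oxidase that acts with Nsdhl, had 11.4 and 9.83 CPM in GMP, 33.6 and 30.1 CPM in EoP and 35.0 and 21.6 CPM in Eos. It was 2.99-fold higher in EoP than in GMP (log2 fold change 1.58, SE 0.30, edgeR adjusted p = 0.00641; lost without GMP replicate 1, adjusted p = 0.0563) and did not pass in Eos against EoP. Lbr carries a sterol reductase domain and was highest in Eos. It had 246 and 182 CPM in GMP, 357 and 380 CPM in EoP and 588 and 571 CPM in Eos. In EoP it was 1.72-fold higher than in GMP (0.79, SE 0.24, edgeR adjusted p = 0.0332). That call was lost on leaving out any single GMP or EoP library. It was also lost with upper quartile factors (adjusted p = 0.081), library size alone (0.313) and at least 50 counts (0.0741). Erlin1, for a protein of the endoplasmic reticulum that takes part in sterol-dependent decay, had 134 and 118 CPM in GMP, 79.0 and 90.3 CPM in EoP and 64.5 and 49.6 CPM in Eos, and fell by 1.14 in Eos against GMP (SE 0.23, edgeR adjusted p = 0.00284).

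Soat1, which esterifies cholesterol for storage, showed the largest difference of the sterol list in EoP. It had 184 and 153 CPM in GMP, 8.73 and 9.94 CPM in EoP and 67.4 and 50.9 CPM in Eos, with no overlap between cell types. It was 18.0-fold lower in EoP than in GMP (log2 fold change −4.17, SE 0.27, edgeR adjusted p = 2.46e-05), 6.32-fold higher in Eos than in EoP (2.66, SE 0.25, adjusted p = 8.36e-05) and 2.85-fold lower in Eos than in GMP (−1.51, SE 0.23, adjusted p = 0.000757), in all alternatives. Soat2, its paralogue, was low, at 1.45 and 4.47 CPM in GMP, 6.37 and 5.66 CPM in EoP and 0.301 and 0.585 CPM in Eos, and fell in Eos against EoP (−3.74, SE 0.76, adjusted p = 0.00449). Against GMP it fell by 2.71 (SE 0.78, adjusted p = 0.0154), lost without GMP replicate 2 (−1.54, adjusted p = 0.191) or Eos replicate 1 (0.0578) and with limma on log2(RPKM + 0.5) (0.0612), and −3.31 without GMP replicate 1.

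Other genes of the sterol list rose in Eos. Abcg1, a cholesterol exporter, had 15.1 and 15.3 CPM in GMP, 19.1 and 16.2 CPM in EoP and 72.3 and 97.2 CPM in Eos, 4.8-fold higher in Eos than in EoP (log2 fold change 2.26, SE 0.25, edgeR adjusted p = 0.000186). Mylip, a ligase that lowers lipoprotein uptake, had 13.7 and 10.7 CPM in GMP, 14.2 and 23.1 CPM in EoP and 59.3 and 84.0 CPM in Eos (Eos minus EoP 1.94, SE 0.31, adjusted p = 0.00128). Rnf145, a ligase known to act on Scap, had 41.0 and 36.8 CPM in GMP, 49.4 and 52.3 CPM in EoP and 115 and 146 CPM in Eos (Eos minus GMP 1.74, SE 0.22, adjusted p = 0.000244). Their Eos libraries lay above all others, and these calls held in all alternatives. Neutrophil markers rose in the same Eos libraries, and their part in these differences was not tested.

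Of the fatty acid list, Acss2, which makes acetyl-CoA from acetate, had 7.75 and 10.3 CPM in GMP, 47.1 and 56.9 CPM in EoP and 59.0 and 91.9 CPM in Eos. It was 5.78-fold higher in EoP than in GMP (log2 fold change 2.53, SE 0.30, edgeR adjusted p = 0.000547), in all alternatives. Lpin1, a phosphatidate phosphatase, had 10.2 and 8.19 CPM in GMP, 21.8 and 24.5 CPM in EoP and 15.5 and 31.8 CPM in Eos (EoP minus GMP 1.33, SE 0.37, adjusted p = 0.0246; lost on leaving out any single GMP or EoP library, adjusted p from 0.0763 to 0.121, and with library size alone or at least 50 counts, 0.102 and 0.0587). Ptplad2 (Hacd4), of the dehydratase family of chain elongation, was higher at each stage, at 6.29 and 6.41 CPM in GMP, 24.6 and 23.1 CPM in EoP and 176 and 253 CPM in Eos (EoP minus GMP 1.91, SE 0.26, adjusted p = 0.00126; Eos minus EoP 3.16, SE 0.25, adjusted p = 3.61e-05). Its paralogue Ptplad1 (Hacd3) had 40.5 and 32.0 CPM in GMP, 93.3 and 89.3 CPM in EoP and 20.4 and 14.1 CPM in Eos, and fell by 2.399 in Eos against EoP (SE 0.26, edgeR adjusted p = 0.000177). Acsl4, an acyl-CoA synthetase for polyunsaturated chains, had 54.3 and 56.8 CPM in GMP, 83.0 and 100 CPM in EoP and 210 and 365 CPM in Eos and was 3.14-fold higher in Eos than in EoP (1.65, SE 0.28, adjusted p = 0.00176). Mecr, of mitochondrial fatty acid synthesis, fell in Eos to 2.51 and 1.4 CPM, against 11.7 and 8.83 CPM in EoP (−2.37, SE 0.46, adjusted p = 0.00348). Dgat2, of triglyceride synthesis, was low in EoP, at 1.06 and 0.857 CPM, against 18.2 and 15.9 CPM in GMP (−4.15, SE 0.63, adjusted p = 0.0023), and had 18.4 and 5.26 CPM in Eos. Its excess in Eos over EoP was 3.62 (SE 0.63, edgeR adjusted p = 0.002), with 2.44 without Eos replicate 1, 4.26 without Eos replicate 2 and 1.47 in limma on log2(RPKM + 0.5). Ptpla (Hacd1), another dehydratase, fell in Eos to 2.61 and 0.819 CPM, against 7.08 and 9.51 CPM in EoP (−2.25, SE 0.57, adjusted p = 0.0129; lost without EoP replicate 2, adjusted p = 0.062; −3.34 without Eos replicate 1).

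**Figure D4:**
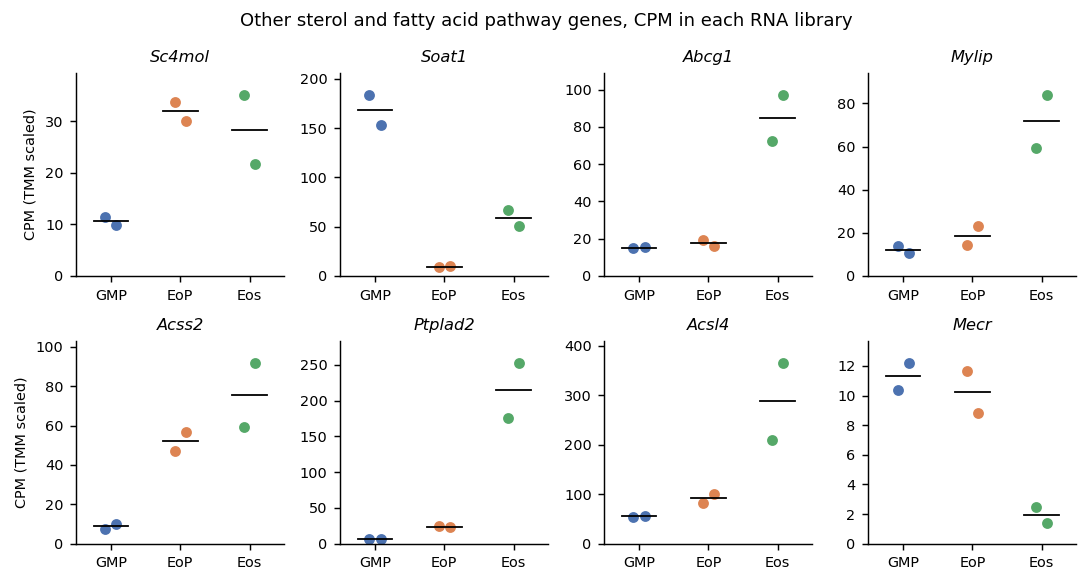
CPM (y axis, linear from 0, a scale of its own for each gene) of 8 named genes of the pathways outside the 32 members in GMP, EoP and Eos, with 1 point per RNA library and a line at the mean of the 2. Soat1 is lowest in EoP at 8.73 and 9.94 CPM. Abcg1, Mylip, Acss2, Ptplad2 and Acsl4 have both Eos points above the other 4, and Mecr has both below them.

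Most members carried H3K4me3 at the promoter at all 3 stages. A promoter peak was listed for 31 of the 32 members in GMP, 30 in EoP and 30 in Eos, and 30 members had one in all 3 lists. Over all genes, the lists named 13278 with a promoter peak in GMP, 11325 in EoP and 11876 in Eos, beside 23471 genes in the RNA files. The share among expressed genes alone was not computed. Scd1 had promoter peaks in the GMP list alone, 2 of them, 309 bases long together and at most 3.81-fold enriched, although its RNA was highest in Eos. All 3 lists held peaks of the intergenic label assigned to Scd1, the strongest 9.58-fold, 10.3-fold and 9.06-fold enriched in GMP, EoP and Eos. Acaca had no promoter peak in any list, although its RNA ranged from 10.5 to 32.9 CPM over the libraries. The RNA files hold 1 transcript of Acaca, so a peak at another start of the gene could be missed. There was 1 library per cell type, so no difference was tested, and lengths and fold enrichments are the authors' own, usable only within a list: the lists held 30641 peaks in GMP, 19816 in EoP and 33846 in Eos, with median lengths of 343, 405 and 190 bases. At a −log10 q of at least 10, members with a promoter peak numbered 29, 26 and 23. With peaks whose gene entry named the member alone they numbered 25, 24 and 24, since 6 members share their peaks with a neighbouring gene. The numbers over all genes at these settings were not computed.

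Within its list, the promoter of Cyp51 stood at percentiles 59.1, 81.4 and 71.1 of summed peak length in GMP, EoP and Eos, with 1044, 1097 and 971 bases. By highest fold enrichment it stood at percentiles 84.0, 93.2 and 67.0. The promoter of Fasn covered 1448, 1442 and 1017 bases, at percentiles 88.1, 96.9 and 75.7. By fold, Fasn stood at percentiles 19.5, 27.6 and 51.5, highest in Eos. Elovl6, whose RNA was lowest in Eos, was at percentiles 75.4 and 74.2 of length in GMP and EoP, with 1234 and 1014 bases. In Eos it was at percentile 7.6 of length, with 239 bases. By fold, Elovl6 stood at percentiles 32.7, 1.32 and 7.66 in GMP, EoP and Eos, lowest in EoP. A further Elovl6 peak that the authors label intron covered 458, 318 and 438 bases in these lists. It was 5.62-fold, 4.74-fold and 5.10-fold enriched. Dhcr7 was 18.1-fold and 12.3-fold enriched at the strongest summit labelled promoter in GMP and EoP, at percentiles 98.5 and 94.0 of fold. In Eos it was 4.83-fold enriched, at percentile 10.1. By summed length, Dhcr7 stood at percentiles 17.9, 12.7 and 24.7 in GMP, EoP and Eos, highest in Eos. These promoter peaks of Dhcr7 are shared with Nadsyn1. A further Dhcr7 promoter of the RefSeq table, at chr7:143829964-143830263, was overlapped in each list by a peak that the authors label intron, 13.9-fold, 10.8-fold and 9.88-fold enriched in GMP, EoP and Eos. These positions describe each list, and lists of unknown read depth, from 1 library each, cannot show a change. For pairs of lists, peaks of members overlapped by at least 1 base in 88.9% of the 54 GMP and 100% of the 52 EoP peaks. The shares were 92.5% of the 53 Eos and 90.4% of the 52 EoP peaks, and 96.2% of the 53 Eos and 88.9% of the 54 GMP peaks. The overlap over all peaks of the lists was not computed.

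**Figure D5:**
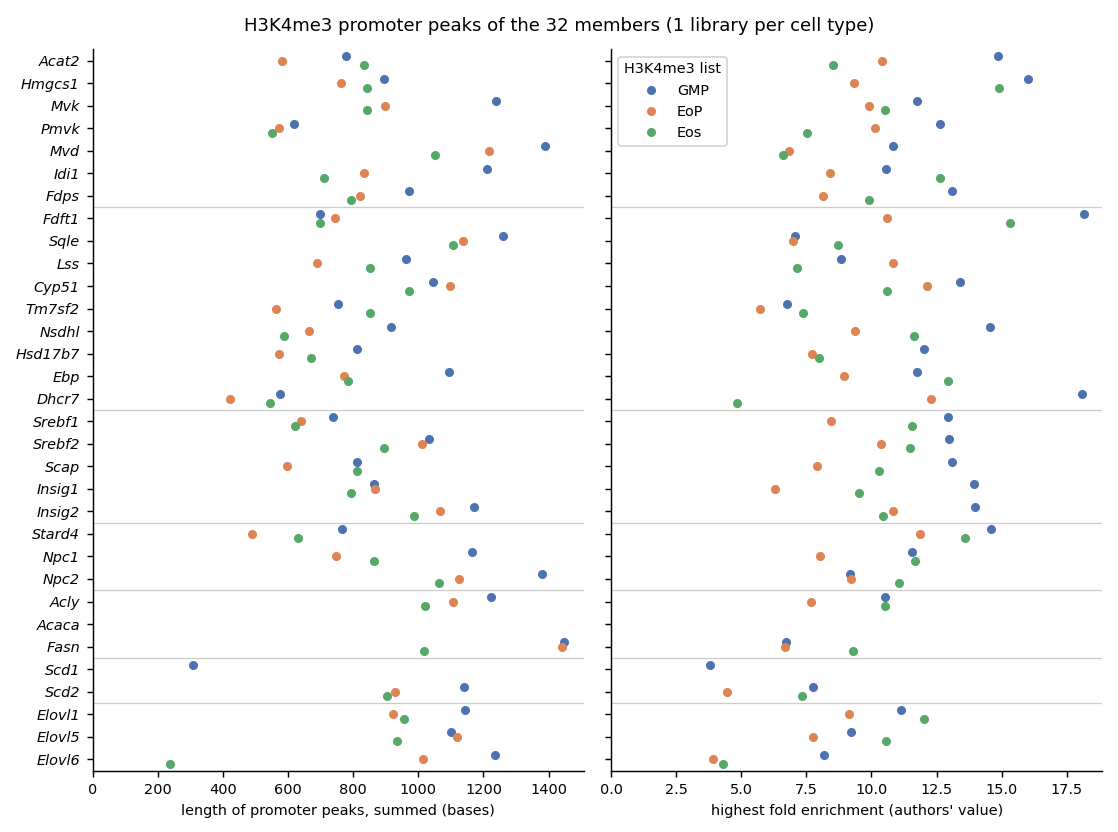
Summed length in bases (left) and highest fold enrichment as given by the authors (right) of the H3K4me3 promoter peaks of each member (y axis, grouped by role), with 1 point for each of the GMP, EoP and Eos lists, 1 library each. Acaca has no point, Scd1 has a point for GMP alone, and the Eos point of Elovl6 lies at 239 bases.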

How the data were processed

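RNA was measured in 6 libraries and H3K4me3 in 3, grouped by their titles into GMP, EoP and Eos. Each deposited RNA table gives an estimated count and an RPKM value for every RefSeq transcript, per the file headers. The submitters' processing notes name STAR 2.4.0c, Bowtie 1.0.0 and mm10, with no role. The counter, the peak caller, any control library and the use of strand are named in no source used here. The H3K4me3 lists give, per the file headers, each summit's pileup signal, −log10 p and q, fold enrichment and peak length. Their read depth is unknown.

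The estimated counts were whole numbers already, so rounding them altered nothing. Both were summed per gene symbol over all 31213 lines (30396 transcripts, 23471 genes). R 4.3.3 with edgeR 4.0.16 fitted all 6 libraries together (quasi-likelihood test, TMM factors of 0.793 to 1.29, default expression filter, cell type as the only term, 3 residual degrees of freedom, common dispersion 0.0692, prior degrees of freedom 7.00), and p-values were adjusted over 14324 genes. CPM were computed with TMM factors. Fold changes are log2 values with their standard errors, later stage minus earlier stage. Alternatives used DESeq2 1.42.0, limma 3.58.1 on log2(RPKM + 0.5) or log2(RPKM + 0.1), other factors and filters, a replicate block and each library left out. A promoter peak is one that the authors' region label places at the member's promoter. The genes named outside the members are the up to 3 largest called changes per direction of each list and comparison, except 1 that is not reported here. Members, lists and motifs were chosen with earlier results of these data known. Low-count genes that the naming rule also picked are given in the closing section.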

Additional observations from a re-analysis of the deposited data

How the results depend on the processing

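Depth limits the weakest members, such as Idi1 with 2 to 25 counts per library, and 2 libraries per cell type leave 3 residual degrees of freedom. Leaving out 1 library left a cell type with 1, which was assumed to vary like the others. Scaling moved the median of all genes: with library size alone by −0.46, −0.12 and −0.58 log2 units for EoP minus GMP, Eos minus EoP and Eos minus GMP, and with limma on log2(RPKM + 0.5) by 0.27, −0.47 and −0.20.

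For EoP minus GMP, the 7 higher members became 4 with upper quartile factors, 3 with library size alone, 3 with at least 50 counts in 2 libraries, 13 and 11 with limma on RPKM plus 0.5 or 0.1 and 11 with only the groups compared, and ran from 2 to 13 with a library left out. No member was called lower in any of these fits. The 3812 genes called became 1539 with at least 50 counts, 2474 with limma on RPKM plus 0.1 and 735 to 5898 with a library left out. For Eos minus EoP, the 3 higher members became 0 with either limma fit, in which Scd1 was not tested, and 1 to 3 with a library left out, the 15 lower members 7 to 14, and the 5273 genes called 3019 to 6397. For Eos minus GMP, the 9 higher members became 3 with library size alone and 4 to 9 with a library left out, the 6 lower members 3 to 11, and the 7810 genes called 4292 to 8011. No called member or named gene changed sign in a fit that tested it, but the members' median did. For EoP minus GMP it was −0.01 with library size alone, against 0.46. For Eos minus GMP it was −0.53 with library size alone, −0.19 with upper quartile factors and −0.09 in both limma fits, against 0.04. The limma fits tested 29 of the 32 members. The cause of these shifts was not tested, except that filters and left-out libraries reduce the genes or samples tested.

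The labels do not say whether libraries with the same replicate number were sorted or prepared together. Their deviations from the group means correlated at −0.139 for GMP with EoP, 0.04 for GMP with Eos and −0.107 for EoP with Eos. With 2 libraries per cell type the deviations of a gene mirror each other, so these values cannot decide whether the libraries were paired. With the replicate number as a block, 6 members were higher and 0 lower for EoP minus GMP, 2 and 14 for Eos minus EoP and 9 and 7 for Eos minus GMP.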

Other observations

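Low counts leave 5 further genes of the 2 pathway lists that passed the test in EoP against GMP or Eos against GMP without a usable size of change. Scd3, a desaturase gene, had 17 and 10 counts in GMP, 0 and 2 counts in EoP and 5 and 2 counts in Eos. Mlxipl, which encodes a glucose-responsive activator of lipid genes, had 13 and 18 counts in GMP, 0 and 1 counts in EoP and 2 and 3 counts in Eos. Elovl2, an elongase gene, had 22 and 6 counts in GMP, 2 and 3 counts in EoP and 0 and 0 counts in Eos. Nr1h3, for a sterol-sensing receptor, had 13 and 14 counts in GMP, 1 and 4 counts in EoP and 6 and 4 counts in Eos. Cyp27a1, a sterol hydroxylase gene, had 40 and 30 counts in GMP, 6 and 7 counts in EoP and 32 and 15 counts in Eos. The falls of Scd3, Mlxipl, Nr1h3 and Cyp27a1 in EoP against GMP were each lost on leaving out any single GMP or EoP library. Those of Scd3 and Nr1h3 were also lost with the DESeq2 Wald test (adjusted p = 0.0553 and 0.0962) and the edgeR replicate block (0.0811 and 0.116). In Eos against GMP, the fall of Mlxipl was lost with the same 2 alternatives (0.0879 and 0.074). In each of the 5 genes both GMP libraries were above both EoP libraries.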
